A study of Mus musculus with 4 samples.

Results

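Transcripts of 9 scavenger and surface receptor genes, Cd163, Mrc1, Msr1, Cx3cr1, Timd4, Folr2, Lyve1, Stab1 and Cd63, were measured in leukocytes of the inflamed mouse colon. The genes were chosen by name, out of 32285 genes in each count matrix, as receptors that are used to describe resident macrophages. Earlier results of these data were known when they were chosen. Cd163 was picked in part because its level ranged widely between samples, so that its range is a description here. All 9 genes were measured.

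The study set AhR-/- mice beside AhR+/+ littermates, AhR being the ligand-activated transcription factor aryl hydrocarbon receptor. All mice had colitis from 2% dextran sulfate sodium (DSS) in the drinking water for 7 days, and colons were taken on day 8. CD45+ leukocytes were enriched with magnetic beads, cells of 3 mice were mixed per sample, and 4 samples were run by 10x Genomics single-cell RNA sequencing. The labels give an age of 10 weeks and the study's text 8 weeks. AhR is lacking from every cell in the AhR-/- mice, and no untreated colon was included. The labels of these 4 samples do not name a genotype, so values are given per sample, as samples 1 to 4, with no test between samples and no comparison of genotypes.

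Macrophages of the colon are in large part replaced by blood monocytes. These lose Ly6C and gain MHC class II, the complement component C1q and CX3CR1 as they mature in the tissue. Scavenger receptors on these cells bind and internalise modified lipoproteins, haemoglobin complexes, glycoproteins, hyaluronan and dying cells. CD163, the mannose receptor (Mrc1), folate receptor beta (Folr2), LYVE1 and TIM-4 (Timd4) are widely used markers of tissue-resident macrophages, although several of them are also made by other cell types.

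Matrices held 8493 to 13730 cells per sample, of which 7539 to 11824 were kept after filters, with a median of 5633.5 to 7084 UMIs (unique molecular identifiers, each standing for an RNA molecule captured) per cell. Each pair of libraries shared 23 to 49 cell barcodes, which was 0.104% to 0.194% of the barcodes of the pair. Cells were gated by markers that did not include the 9 genes. The macrophage gate took cells with at least 4 of 12 macrophage markers, at least 20 C1q UMIs per 10000 UMIs and fewer than 8 UMIs per 10000 of 5 monocyte genes. It held 353, 703, 650 and 673 cells in samples 1 to 4, the monocyte gate 1019, 360, 1176 and 488, a transitional gate with both kinds of markers 755, 251, 536 and 443, and the conventional dendritic cell (DC) gate 216, 149, 411 and 147. The macrophage gate is a range of a score and not a separate cell type, and 23 to 52 of its cells per sample lay just inside its lower limit, at 20 to 25 C1q UMIs per 10000. Its defining genes C1qa, Csf1r, Adgre1 and Mertk were present in every sample. CPM is UMIs of a gene summed over the cells of a gate, per 1000000 UMIs of that gate. The T cell gene Cd3e was at 1.45 to 5.60 CPM in it, the endothelial gene Cdh5 at 0.314 to 1.10 CPM and the neutrophil gene Cxcr2 at 0.415 to 1.10 CPM, while the 8 neutrophil markers together, S100a8 included, were at 356 to 560.3 CPM. Fcgr1, also a macrophage marker, was lower in this gate than in monocytes in every sample, at 86.4 to 141 against 109 to 152 CPM.

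RefSeq promoters on GRCm38.p6 were found for 7 of the 9 genes (8 promoters in all) and not for Msr1 and Lyve1. The 250 bases upstream of the annotated start are shown for Cd163, Mrc1, Stab1 and Timd4. Co-detection of Cd163 with Mrc1 and of Cd163 with Stab1 in single macrophages is given below, and Timd4 had its highest level in another cell type. Capitals mark GAGGAA or its reverse complement TTCCTC (the core bound by PU.1, a factor of myeloid cells) and TGCTGA or its reverse complement TCAGCA (a half-site bound by MAF factors).
Cd163 (chr6:124304401-124304650, plus strand): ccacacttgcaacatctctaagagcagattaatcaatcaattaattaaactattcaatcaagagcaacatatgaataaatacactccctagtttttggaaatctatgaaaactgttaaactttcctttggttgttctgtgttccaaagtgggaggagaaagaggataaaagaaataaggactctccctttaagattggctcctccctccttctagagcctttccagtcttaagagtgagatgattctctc
Mrc1 (chr2:14229164-14229413, plus strand): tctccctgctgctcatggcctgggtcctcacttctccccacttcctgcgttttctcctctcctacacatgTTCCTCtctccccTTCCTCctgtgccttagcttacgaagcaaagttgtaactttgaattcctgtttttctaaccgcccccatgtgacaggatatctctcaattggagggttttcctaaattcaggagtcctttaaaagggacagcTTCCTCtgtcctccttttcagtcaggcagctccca
Stab1 (chr14:31168642-31168891, minus strand): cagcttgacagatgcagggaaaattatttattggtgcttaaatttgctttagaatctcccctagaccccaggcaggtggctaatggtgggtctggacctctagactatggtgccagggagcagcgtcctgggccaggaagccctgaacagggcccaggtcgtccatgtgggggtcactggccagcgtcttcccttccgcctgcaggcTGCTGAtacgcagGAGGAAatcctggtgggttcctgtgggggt
Timd4 (chr11:46810549-46810798, plus strand): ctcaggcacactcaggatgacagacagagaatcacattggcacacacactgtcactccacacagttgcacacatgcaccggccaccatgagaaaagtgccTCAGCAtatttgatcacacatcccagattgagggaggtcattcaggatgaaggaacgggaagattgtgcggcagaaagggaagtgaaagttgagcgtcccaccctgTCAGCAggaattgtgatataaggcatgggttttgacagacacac
The PU.1 core was present 3 times upstream of Mrc1, once upstream of Stab1 and not in the windows of Cd163 and Timd4. The MAF half-site was present 2 times upstream of Timd4 and once upstream of Stab1. Of the windows not shown, that of Cd63 held the PU.1 core 2 times, each Folr2 window the MAF half-site once, and that of Cx3cr1 neither. On either strand, 23.3% of 32851 promoter windows of 250 bases held the PU.1 core and 16.1% the MAF half-site. The letters GCGTG, the core that AhR binds, or their reverse complement CACGC, were in 0 of the 8 windows and in 28.2% of all windows. These are matches of letters and not measured binding sites.

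**Figure D1:**
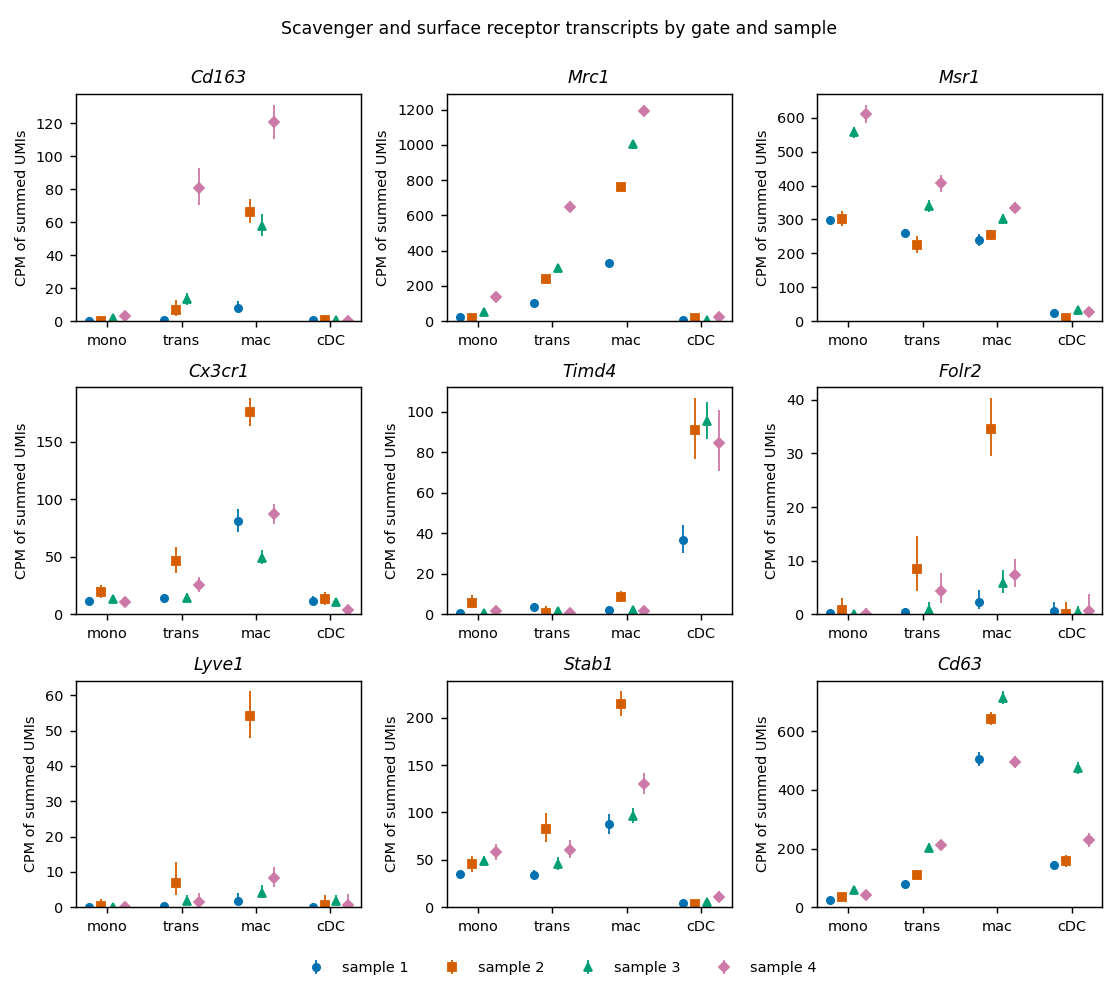
CPM of summed UMIs (linear axes, each starting at 0) of the 9 genes in the monocyte (mono), transitional (trans), macrophage (mac) and conventional DC (cDC) gates of samples 1 to 4, with exact Poisson 95% intervals that cover counting error only. Cd163, Mrc1, Cx3cr1, Folr2, Lyve1, Stab1 and Cd63 were highest in the macrophage gate of every sample, Msr1 in the monocyte gate and Timd4 in the DC gate.

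Transcripts of the haemoglobin and mannose receptors were far higher in macrophages than in monocytes. Cd163 (ENSMUSG00000008845, chromosome 6 from 124304656 to 124330527, plus strand), which takes up haemoglobin bound to haptoglobin, was at 8.17, 66.4, 57.9 and 120 CPM in the macrophage gate of samples 1 to 4. In monocytes it had 0 UMIs in samples 1 and 2, which allows up to 0.301 and 1.21 CPM, and was at 1.81 and 3.14 CPM in samples 3 and 4. Against a floor of 3 UMIs per sample, the macrophage gate was at least 27.2-fold and 54.7-fold higher in samples 1 and 2, and with counting error in both gates the exact 95% lower limits of the ratios were 20.6 and 44.2. It was 32.0-fold (19.4 to 56.6) and 38.3-fold (21.2 to 77.2) higher in samples 3 and 4. Cd163 was thus higher in the macrophage than in the monocyte gate even in sample 1, where its level was lowest by far. The macrophage gate held 44.1%, 72.4%, 67.4% and 52.4% of the Cd163 UMIs of samples 1 to 4, and ungated cells 13.7% to 32.2%.

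Mrc1 (ENSMUSG00000026712, chromosome 2 from 14229392 to 14332057, plus strand), the mannose receptor that internalises mannosylated glycoproteins, was at 327, 758, 1003 and 1193 CPM in the macrophage gate and 24.4, 15.4, 52.8 and 136 CPM in the monocyte gate. Its macrophage over monocyte ratio was between 8.79 (exact 95% interval 7.999 to 9.67) in sample 4 and 49.3 (35.9 to 69.8) in sample 2. The order of samples 1, 2, 3 and 4, from low to high, held in the macrophage and transitional gates, and intervals of neighbours did not overlap in the macrophage gate. The transitional gate stood between the monocyte and macrophage gates in every sample, at 102 to 649 CPM.

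Stab1 (ENSMUSG00000042286, chromosome 14 from 31139013 to 31168641, minus strand), which encodes stabilin-1, a clearance receptor of macrophages and sinusoidal and lymphatic endothelium, was at 87.4, 214, 96.5 and 130 CPM in the macrophage gate. It was already present in monocytes, at 34.8, 45.3, 49.0 and 58.0 CPM. The ratio of 1.97 (1.73 to 2.24) to 4.73 (3.89 to 5.80) was accordingly smaller than that of Mrc1 in each sample.

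Msr1 (ENSMUSG00000025044, chromosome 8 from 39581685 to 39642673, minus strand), the class A receptor for modified low-density lipoprotein, had the opposite order. It was at 298, 303, 557 and 612 CPM in the monocyte gate and 240, 253, 300.5 and 335 CPM in the macrophage gate. In every sample the macrophage gate was lower, with ratios of 0.804 (0.742 to 0.871), 0.837 (0.763 to 0.918), 0.539 (0.510 to 0.570) and 0.548 (0.513 to 0.586). Msr1 therefore did not follow the name of the group in these cells, since its transcript was higher in monocytes in every sample. Its level in the DC gate was 8.58 to 31.4 CPM.

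Cx3cr1 (ENSMUSG00000052336, chromosome 9 from 119901616 to 120069879, minus strand), the receptor for the membrane chemokine CX3CL1, was at 80.8, 176, 49.2 and 87.0 CPM in the macrophage gate and 10.3 to 19.4 CPM in monocytes. The transitional gate, at 13.95 to 46.0 CPM, lay closer to monocytes than to macrophages for this gene. Samples 1 and 4 did not differ beyond counting error in macrophages, sample 3 was lowest and sample 2 highest. Cx3cr1 was not confined to macrophages. Cells with mast cell and basophil markers had it at 41.8 to 234 CPM, from 95 UMIs in 122 cells over the 4 samples.

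Cd63 (ENSMUSG00000025351, chromosome 10 from 128900989 to 128912822, plus strand), a tetraspanin of late endosomes and lysosomes, was at 506, 643, 715 and 496 CPM in macrophages against 23.8 to 58.5 CPM in monocytes. It had the smallest spread between samples of the genes that were called higher, 1.44-fold from sample 4 to sample 3. Folr2 (ENSMUSG00000032725, chromosome 7 from 101839988 to 101857194, minus strand), the folate receptor of macrophages, was at 2.20, 34.6, 5.79 and 7.29 CPM in the macrophage gate, with 7, 167, 32 and 33 UMIs. In monocytes Folr2 had only 0 to 2 UMIs per sample. Lyve1 (ENSMUSG00000030787, chromosome 7 from 110850607 to 110863239, minus strand), a hyaluronan receptor, was at 1.89, 54.1, 4.16 and 8.17 CPM in macrophages, with 6, 261, 23 and 37 UMIs, and had 0 or 1 UMI in monocytes. Sample 2 was thus the only sample in which either gene exceeded 10 CPM in this gate.

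A gene was called higher in macrophages where the ratio of CPM plus 1 was at least 2 in 4 of 4 samples, and lower where it was at most 0.5. Cd163, Mrc1, Cx3cr1, Folr2, Lyve1 and Cd63, 6 of the 9 genes, were called higher, against 461 of 9865 genes tested (4.67%), and 0 of the 9 were called lower, against 195 (1.98%). Genes tested had at least 5 CPM in either gate of any sample. Cd163, Folr2 and Lyve1 passed through the macrophage gate alone, with at most 3.14, 0.809 and 0.404 CPM in monocytes. These genes could therefore not have been called lower. All 9 were chosen as receptors that describe resident macrophages, with earlier results of these data known. The count of 6 is thus a description and not a test against the share of all genes. Stab1 missed the call in sample 3 alone, with a log2 ratio of 0.96 there and a median of 1.23. The calls of Cd163, Mrc1, Cx3cr1 and Cd63 held under each alternative run, whereas Folr2 and Lyve1, with 7 and 6 UMIs in sample 1, lost theirs with 5 CPM added and with transitional cells in the macrophage gate, Folr2 also under a 10% mitochondrial limit. Median log2 ratios of the genes called higher were between 2.78 for Lyve1 and 4.63 for Cd163. The median over all genes tested was 0.16 on this scale and -0.02 with median-of-ratios size factors, which gave 332 genes higher and 275 lower and again called 6 of the 9 higher. Timd4 had a median of 0.71 and was within counting error of equality in samples 1, 2 and 4, so no difference between the gates was detectable there at this depth. In sample 3 its ratio was 5.86 (1.55 to 32.7), from 11 and 3 UMIs. The gates share their samples, and the C1q genes and monocyte genes that set them were left out of the genes counted.

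**Figure D2:**
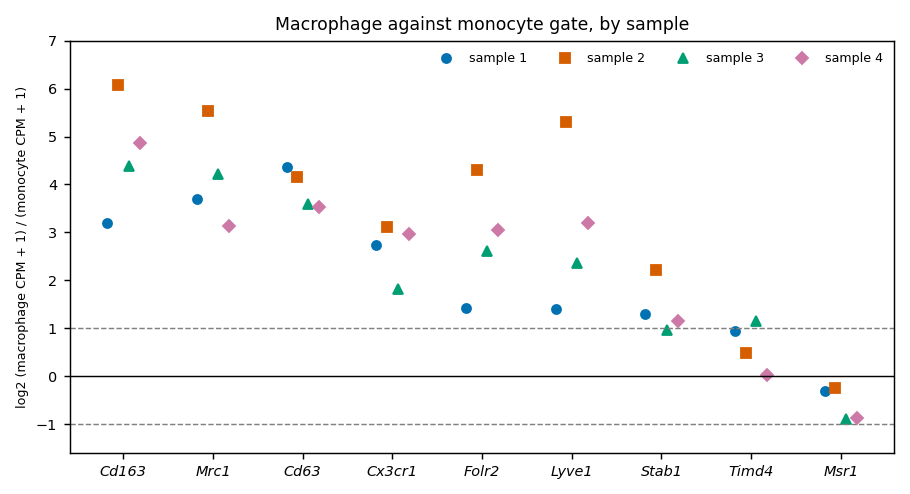
Log2 ratio of macrophage to monocyte CPM, with 1 CPM added to each, for the 9 genes in samples 1 to 4, ordered by their median. The dashed lines mark a 2-fold difference in either direction, and all 4 points of Msr1 lie below 0, from -0.89 to -0.26, while those of Cd163 lie between 3.20 and 6.07.

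Several of the 9 genes were not confined to macrophages. Timd4 (ENSMUSG00000055546, chromosome 11 from 46810800 to 46844332, plus strand), a receptor for phosphatidylserine on dying cells, was at 1.77 to 8.30 CPM in the macrophage gate and at 36.6, 90.8, 95.3 and 84.7 CPM in the conventional DC gate. That gate held 1.26% to 4.04% of the kept cells and 27.7% to 63.4% of the Timd4 UMIs. The gate took cells with at least 3 of 10 DC markers, at least 5 UMIs per 10000 of these and fewer than 5 C1q UMIs per 10000. Cells with at least 2 of Ccr7, Fscn1, Cacnb3 and Ccl22, markers of mature migratory DC, had Timd4 at 27.5, 100.3, 91.3 and 89.8 CPM, and cells with at least 2 of Xcr1, Clec9a and Naaa, markers of cross-presenting DC, had it at 22.1, 66.6, 107 and 49.95 CPM, the last from 11 UMIs in 13 cells. DC with Cd209a and neither of these sets of markers had it at 41.7, 87.8, 64.6 and 51.6 CPM. The other DC, 13 to 51 cells per sample, had 69.1, 177, 116 and 121 CPM, the highest level in each sample. Timd4 was therefore found in every set of DC and was not particular to mature or cross-presenting DC. In macrophages it was most frequent in sample 2, where 28 of 703 cells had a Timd4 UMI, 16 of them with Cd163, against 3, 8 and 5 cells in samples 1, 3 and 4.

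Cd63 in DC, unlike Timd4, was high in 1 of these sets only. The Ccr7, Fscn1, Cacnb3 and Ccl22 set had 464, 439, 619 and 341 CPM, while the Xcr1, Clec9a and Naaa set had 2.23 to 28.6 CPM and the remaining DC at most 51.8 CPM. Mast cell-like cells, in which CD63 is a granule membrane protein, had 769 to 1761 CPM, and fibroblast-like cells 711 to 1058 CPM. Cells with epithelial markers had 326 to 550 CPM, and the 24 cells with lymphatic endothelial markers 377 to 754 CPM. Cd63 was hence high in macrophages, mature DC, mast cell-like, fibroblast-like, epithelial-like and lymphatic endothelial-like cells. It was low in monocytes and in B cell-like cells, at 4.84 to 17.0 CPM in the latter.

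Lyve1 is best known from lymphatic endothelium, and only 5, 1, 10 and 8 cells with lymphatic endothelial markers remained after CD45 selection. These cells carried Lyve1 at 1792 to 3017 CPM, the last in the 1 such cell of sample 2. In samples 1, 3 and 4 they held 88.3%, 72.7% and 71.2% of all Lyve1 UMIs, although they were at most 0.106% of the kept cells. In sample 2 the macrophage gate held 69.2% of Lyve1 UMIs. In the macrophage gate the lymphatic gene Prox1 was at 0.314, 0.622, 0.362 and 0.221 CPM in samples 1 to 4, from 1 to 3 UMIs each, and the 5 lymphatic markers together were at 84.8, 107, 143 and 144 CPM, with 1 or 2 of them at 0. Their part in the Lyve1 level of sample 2 was not tested. Stab1 was also present in lymphatic endothelial-like cells, at 251 to 633 CPM, and in other endothelial-like cells at 51.7 to 73.9 CPM.

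**Figure D3:**
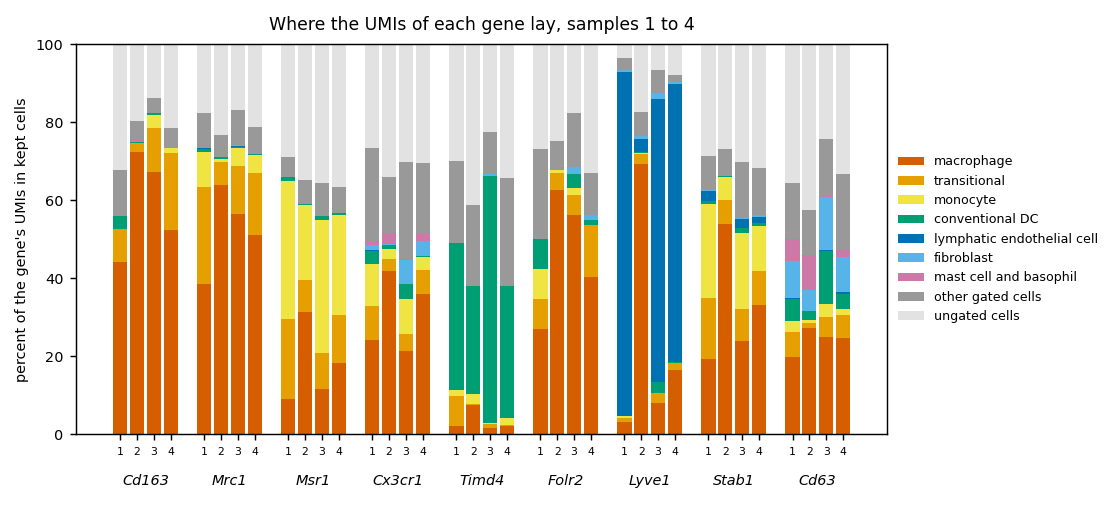
Percent of each gene's UMIs, among all kept cells of a sample, that lay in each gate or cell class, for samples 1 to 4. Lyve1 UMIs lay mostly in a few lymphatic endothelial-like cells in samples 1, 3 and 4 and in the macrophage gate in sample 2, Timd4 UMIs lay in the DC gate more than in any other gated class, and ungated cells carried markers of several lineages or of none.

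The background level of these transcripts was read in B cell-like cells, which were taken to lack them. That class took only cells with fewer than 4 of the 12 macrophage markers, so cells with more macrophage RNA were left out. The background read may therefore be too low. By CPM, Timd4 was at 1.65 to 7.87 in B cell-like cells and at 1.77 to 8.30 in macrophages. With each cell thinned to 2000 UMIs, which left out 4.46% to 9.51% of macrophages and 3.29% to 8.27% of B cell-like cells, a Cd163 UMI was found in 0.898%, 10.1%, 7.09% and 14.4% of macrophages and in 0% to 0.336% of B cell-like cells. Sample 1 was 3 cells of 334, with an interval of 0.186% to 2.60%. Unthinned, 12, 105, 83 and 150 macrophages had a Cd163 UMI, which was 3.40% to 22.3% of the gate at a median depth of 5962 to 8303 UMIs, and 0% to 0.501% of B cell-like cells did at 3944.5 to 5191 UMIs. Mrc1 was detected in 31.7%, 55.6%, 66.0% and 70.6% of thinned macrophages and in 0.435% to 3.01% of B cell-like cells. Lyve1 and Folr2 were found in 6.83% and 5.59% of thinned macrophages of sample 2 and in 0.299% to 1.29% in the other samples, where the counts were 1 to 8 cells. Timd4 was found in 0.299% to 1.40% of thinned macrophages, 4.65% to 14.6% of thinned DC and 0% to 0.273% of thinned B cell-like cells, so that its share in macrophages of samples 1, 3 and 4 was near background. Lyve1 and Folr2 were found in at most 0.0873% and 0.218% of thinned B cell-like cells.

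Between samples, the 9 genes did not move as a unit within the macrophage gate. Folr2 and Lyve1 differed at least 4-fold between the lowest and highest sample, by 11.1 and 19.1-fold on the CPM plus 1 scale. At that range were 304 of 9544 genes (3.19%). The 9 genes were chosen with earlier results of these data known, so their ranges are descriptions and are not set against that share. The lowest values of Folr2 and Lyve1 rested on 7 and 6 UMIs in sample 1. Lyve1 was above the filter of 5 CPM in samples 2 and 4 only. Cd163 differed 13.2-fold and was picked in part for its range. Cd163 was lowest in sample 1 and highest in sample 4, and samples 2 and 3 did not differ beyond counting error. Folr2 and Lyve1 were highest in sample 2, and among the other 3 samples neighbours in order had overlapping intervals while sample 1, at 0.884 to 4.53 CPM for Folr2 and 0.692 to 4.10 CPM for Lyve1, lay below sample 4, at 5.02 to 10.2 and 5.76 to 11.3 CPM. Stab1, Cx3cr1 and Timd4 were also highest in sample 2, by 2.44, 3.52 and 3.36-fold over the lowest sample, while Mrc1 and Msr1 were highest in sample 4. Without sample 1 the range of Cd163 was 2.06-fold, and without sample 2 those of Folr2 and Lyve1 were 2.59 and 3.18-fold. The macrophage gate of sample 2 also had the highest summed levels of B cell markers, 70.1 against 9.41 to 35.2 CPM, and plasma cell markers, 218 against 7.29 to 31.7 CPM, with none of the 5 and 4 markers at 0, and their part in these values was not tested.

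The macrophage gates also differed in C1q level, with a median of 52.8, 65.4, 48.6 and 50.04 C1q UMIs per 10000 in samples 1 to 4. Cells were therefore compared within the same C1q range. At 80 or more C1q UMIs per 10000, Cd163 was at 23.0, 108, 152 and 274 CPM, and at 20 to 40 it was at 1.32, 18.7, 17.2 and 79.8 CPM. Cd163 was higher with more C1q in every sample, and sample 1 remained the lowest at each C1q level. Mrc1 followed the same order, with 220, 573, 656 and 885 CPM at 20 to 40 and 453, 937, 1611 and 1871 CPM at 80 or more. Msr1 was almost flat over these ranges, at 228 to 307 CPM in the lowest and 236 to 331 CPM in the highest. Cx3cr1 was higher in the top range than in the lowest in every sample, and in sample 2 was at 78.9 CPM in the lowest and 249 CPM in the top range.

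**Figure D4:**
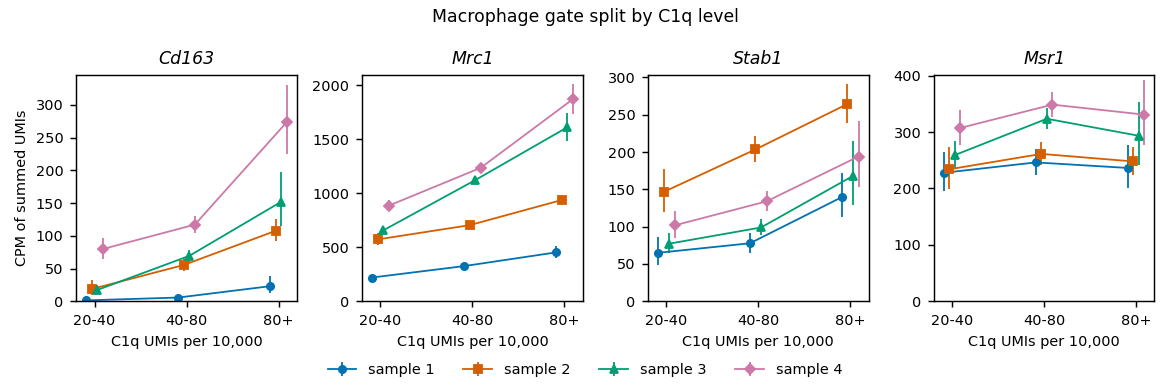
CPM of Cd163, Mrc1, Stab1 and Msr1 in cells of the macrophage gate with 20 to 40, 40 to 80 and 80 or more C1q UMIs per 10000 UMIs, for samples 1 to 4, with exact Poisson 95% intervals that cover counting error only. Cd163, Mrc1 and Stab1 were higher with more C1q in each sample, and sample 1 had the lowest Cd163 and Mrc1 in each range.

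Which receptors were found in the same cell was read as the odds ratio of co-detection within a sample, over macrophages thinned to 2000 UMIs, for pairs in which each gene was in at least 20 cells. Of 36 pairs, 15 could be read in at least 2 samples, and 8 of them had an odds ratio over 1 in every sample read. Cd163 with Mrc1 alone was at 2 or more in every sample read, and alone had an exact 95% interval above 1 in each. Every other of the 8 pairs had an interval that included 1 in at least 1 sample, and Msr1 with Cd63 in every sample. Pairs of other genes in this gate were not counted. These counts therefore have no background share and are not read as particular to these receptors. Cd163 with Mrc1 had 8.57 (exact 95% interval 3.89 to 26.4), 6.69 (2.41 to 39.3) and 4.63 (2.29 to 11.95) in samples 2, 3 and 4. Of the Cd163-positive cells, 59 of 65, 41 of 44 and 80 of 88 also had Mrc1. Cd163 and Stab1 had 4.28 (2.46 to 7.72), 2.94 (1.36 to 5.92) and 1.505 (0.840 to 2.57), the last not distinguishable from 1. Cd163 and Cx3cr1 were at 0.685 to 1.02, each with an interval that included 1.

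Counted over the 9 genes, 25.1%, 11.5%, 8.37% and 7.39% of thinned macrophages in samples 1 to 4 had none of them and 22.2% to 33.8% had 2, whereas 28.2% to 51.0% of thinned monocytes had none.

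Lyve1 and Folr2 could be read in sample 2 only. There 19 cells had both, where independence gives 2.46, an odds ratio of 25.5 (11.2 to 60.0). Lyve1 with Cd163 had 8.13 (3.88 to 16.7), Folr2 with Cd163 7.97 (3.56 to 17.3) and Lyve1 with Mrc1 6.33 (2.65 to 22.6). Lyve1 with Cx3cr1 had the lowest odds ratio of any pair read, 0.166 (0.0156 to 0.528), with 2 cells against 10.9 under independence, and Folr2 with Cx3cr1 was at 0.514 (0.142 to 1.26). The Lyve1 and Folr2 transcripts of sample 2 thus lay in macrophages that had Cd163 and Mrc1 more often, and Cx3cr1 less often for Lyve1, than the rest of the gate. Without thinning, 60 of 703 macrophages of sample 2 had Lyve1, 37 had Lyve1 and Folr2 and 26 had Lyve1, Folr2 and Cd163, and the last set had 0, 2 and 5 cells in samples 1, 3 and 4.

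**Figure D5:**
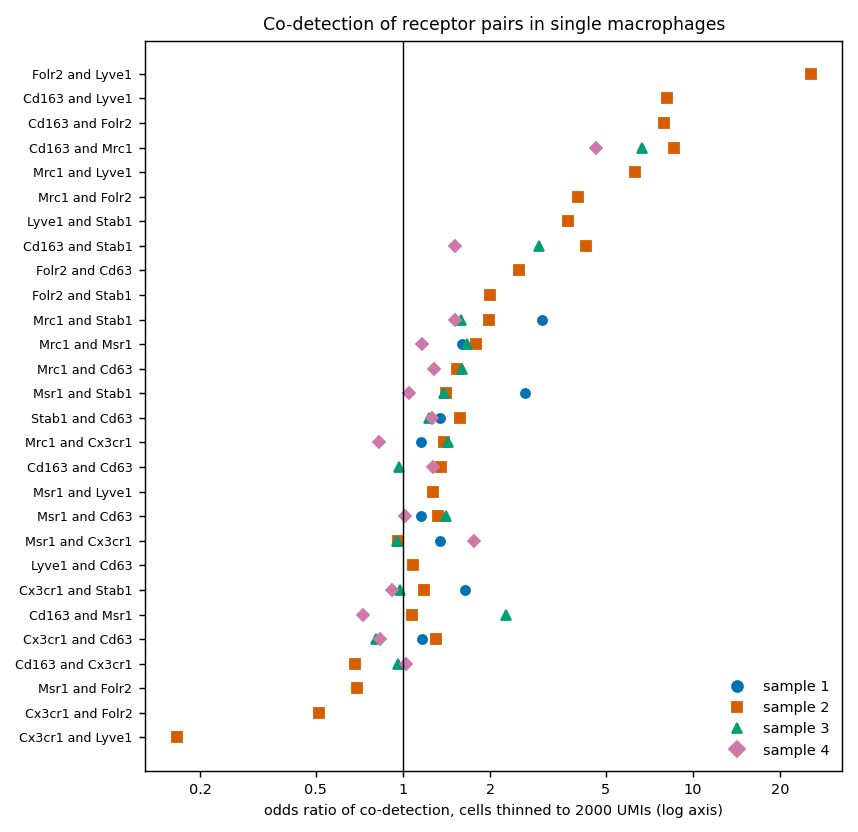
Odds ratio of co-detection (log axis) for the pairs of genes that could be read, each point a sample, in macrophages thinned to 2000 UMIs per cell. Pairs are ordered by their median, with Folr2 and Lyve1 at 25.5 and Cx3cr1 and Lyve1 at 0.166, both from sample 2 alone.

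Macrophages with a Cd163 UMI were set beside those without in samples 2, 3 and 4, since sample 1 had 12 such cells. Of the other 8 genes, Folr2 and Lyve1 were at least 2-fold higher in the Cd163-positive cells in 3 of 3 samples, against 79 of 10425 genes (0.758%) that were, and 0 were called lower, against 68 (0.652%). Folr2 was at 141, 22.7 and 22.6 CPM in positive and 16.3, 3.84 and 3.10 CPM in negative cells. Lyve1 was at 267, 35.0 and 22.6 against 17.5, 0.606 and 4.22 CPM. Outside sample 2 these values rested on few cells. Lyve1 with Cd163 was found in 36, 6 and 11 cells of samples 2, 3 and 4, and Folr2 with Cd163 in 40, 9 and 16. Only 9 macrophages of sample 3 had Lyve1 at all. Mrc1 was at 1684, 2262 and 1850 against 599, 858 and 1013 CPM, below 2-fold in sample 4 only, while Cd63 was at 649, 658 and 530 against 641, 722 and 487 CPM. Timd4 was at 33.9 and 8.75 against 3.89 and 1.21 CPM in samples 2 and 3, and at 0 against 2.25 CPM in sample 4. Cd163-positive cells had more C1q, with a median of 75.9, 56.7 and 58.1 against 63.3, 47.0 and 48.4 UMIs per 10000, and what part of these differences goes with C1q was not tested. Of 52 related genes tested, from the lists described below, 3 were higher in Cd163-positive cells and 3 lower in every sample. The shares over the 10425 genes were 0.758% and 0.652%. Members and lists were chosen with earlier results of these data known, so these counts and those of the 8 genes are descriptions and not tests. Clec10a, a galactose-type lectin, had log2 differences of 1.54 to 2.79, Gas6, a bridging ligand of TAM receptors, had a median of 1.94 and Siglec1, a sialic acid receptor, of 1.31. The levels of Siglec1 were low, at 11.3 to 14.1 CPM in positive and 4.22 to 5.05 CPM in negative cells. Itgax, the integrin CD11c, was lower, with a median log2 difference of -2.76, as were Ly75, the lectin DEC-205, with -2.56, and Olr1, a receptor for oxidised lipoprotein, with -1.47. Ly75 was also at low levels, 0 to 3.08 CPM in positive and 4.13 to 23.1 CPM in negative cells.

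Related receptors and their partners were followed in 10 lists of 78 genes, of which 77 were measured, 71 were not themselves gating markers and 49 of these passed the filter of 5 CPM in either gate of any sample. Of the 49, 11 were called higher in macrophages than in monocytes, against 461 of 9865 genes tested (4.67%). The lists were chosen with earlier results of these data known, so this count is a description and not a test. Called lower were 2 of the 49, against 195 (1.98%), a count too small to be set apart from that share. The median log2 was 0.49 over the lists and 0.16 over all genes tested. The calls of Axl, Cd81, Cxcl16 and Gas6 held under each alternative run. With transitional cells in the macrophage gate those of C3ar1, Cd36, Colec12, Itgax, Spic, Clec4e and Olr1 were lost, with a stricter exclusion of other lineages those of Colec12, Marco, Nr1h3 and Spic, and with 5 CPM added those of Colec12, Spic and Olr1. The mean of CPM per cell lost those of Colec12, Itgax, Nr1h3 and Olr1. Median-of-ratios size factors lost those of Colec12 and Spic, and the 10% mitochondrial limit that of Colec12. Marco and Colec12, class A receptors like Msr1, were both called higher, Marco at 14.8, 16.8, 176 and 82.0 CPM in macrophages against at most 6.23 CPM in monocytes. Cd36, a class B receptor for lipids and dying cells, was at 189 to 292 against 18.4 to 76.9 CPM. For uptake of dying cells, Axl was at 123 to 158 against at most 8.49 CPM and its ligand Gas6 at 15.4 to 81.1 against 0.201 to 1.62 CPM. Gas6 passed the filter through the macrophage gate alone and so could not have been called lower. Axl thus varied little between samples, unlike Cd163. The tetraspanin Cd81 was at 125 to 417 against 2.38 to 9.71 CPM, while the other 7 genes in the list of tetraspanins and lysosomal proteins were not called. C3ar1, the receptor for the complement fragment C3a, Itgax, the membrane chemokine and scavenger receptor Cxcl16 and the transcription factors Nr1h3 and Spic were the remaining genes called higher. Olr1, at 28.0 to 68.5 against 106 to 179 CPM, and Clec4e, a receptor for mycobacterial glycolipid, at 170 to 437 against 957 to 1417 CPM, were called lower.

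The genes most like each of the 9 were found by Pearson correlation of log2(CPM + 1) over 16 sums, those of the monocyte, transitional, macrophage and DC gates in 4 samples, among 7245 genes. These values describe the same libraries and gates. Igf1 was nearest to Cd163 (r = 0.963), Pf4 to Mrc1 (0.975), Zeb2 to Msr1 (0.993), Mvb12b to Cx3cr1 (0.952), Synj1 to Timd4 (0.970), Mcfd2 to Stab1 (0.971) and Eif3a to Cd63 (0.95). Cbr2 was nearest to both Folr2 (0.958) and Lyve1 (0.936).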

How the data were processed

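Single-cell RNA sequencing was done on CD45+ colonic leukocytes in 4 samples. The matrices deposited by the authors hold UMI counts that are whole numbers and not normalized. Submitters' processing notes name Cell Ranger 5.0.0, STAR, Seurat and mm10, whereas the file headers name Cell Ranger 7.0.1. These releases differ in whether intronic reads are counted by default, which can move counts of genes with long introns, and the setting used is not given in the sources used here. Positions are from GENCODE M21 on GRCm38.

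Cells with at least 200 genes and under 20% mitochondrial UMIs were kept, and the cells with the highest Scrublet scores were removed at 0.8% per 1000 cells (3882 cells; scanpy 1.11.5), because the automatic threshold marked between 0 and 3591 cells per sample. Gates used fixed marker lists, and their thresholds were set after the data were seen. The members and lists were chosen with earlier results of these data known. Counts were summed per gate and sample and expressed as CPM, with exact Poisson intervals. Shares have exact Clopper-Pearson intervals, and odds ratios, computed with 0.5 added to each count, have exact conditional intervals on the raw counts. All intervals are at 95% and cover counting error only. The scripts were tested on simulated data. Named genes are the 9 members, genes of the lists that were called, and the nearest gene to each member by correlation among genes at 20 CPM or more in any sum. No group could be assigned to a sample, so no test was made between samples. Samples have no shared replicate numbers between groups. Alternatives covered doublets, mitochondrial and gene filters, gates, scaling, pseudocount, thinning and leaving out each sample. Named versions were Python 3.11.15, numpy 2.4.6, scipy 1.17.1 and pandas 2.3.3.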

Additional observations from a re-analysis of the deposited data

How the results depend on the processing

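No paired analysis was possible because the labels put the 4 samples in no group. Every median log2 ratio of macrophage over monocyte for the 9 genes kept its sign under all 13 alternatives, with Msr1 between -0.87 and -0.31. The number of the 9 called higher was 6, and 4 to 7 under the alternatives. With transitional cells put in the macrophage gate, all-gene calls were 216 higher and 76 lower, list calls 6 higher and 0 lower, 5 of the 9 genes ranged at least 4-fold, the Cd163 range was 25.6-fold and the median Cd163 and Mrc1 odds ratio 9.74, against 6.69. With stricter exclusion of other lineages the Cd163 range was 9.74-fold and 7 list genes were higher. With 5 CPM added it was 9.52-fold, 251 genes were higher and 1 list gene lower, and the mean of CPM per cell also left 1 list gene lower. The odds ratio was 4.27 when cells were thinned to 1000 UMIs and 12.8 without thinning. In the run without thinning, 17 pairs were above 1 in all samples read, by the odds ratio and not its interval. Leaving out each sample gave a Cd163 range of 2.06 to 13.2-fold, from without sample 1 upwards, and 1 (without sample 2) to 3 genes at 4-fold or more. The causes were not tested. In samples 1, 3 and 4, Lyve1, Folr2 and Timd4 rested on 6 to 37 UMIs each in the macrophage gate, and the intervals of samples 1 and 4 did not overlap for Lyve1 and Folr2.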
